A study of Bos taurus with 92 samples.

Results

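Solute carriers (SLC genes) and ATP-binding cassette transporters (ABC genes) were followed across single bovine blastocysts and the somatic donor cells of nuclear transfer. The members were all probes of a custom cDNA array whose single gene symbol begins with SLC or ABC and a family number, leaving out the glucose carriers SLC2A1 and SLC2A3, the mitochondrial SLC25A family and the cholesterol exporter ABCA1. This rule, which uses no measured value, took 79 of 8208 probes and 62 of 4452 named genes, of which 55 are SLC and 7 are ABC genes. All 62 passed the filter on missing values and were tested among 4398 genes.

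The embryos were 15 made by nuclear transfer (NT, an oocyte given a somatic nucleus), 15 made by fertilisation in vitro (IVF) and 14 from artificial insemination (AI), and 2 samples held donor cells. Each blastocyst was a sample of its own, so that its inner cell mass and trophectoderm were measured together. The labels give no breed, age, culture medium, cell line or batch, and the donor cells are named by their use alone. Batch and kind of embryo therefore cannot be told apart. In such samples fewer cells of a type and less RNA per cell cannot be told apart either.

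Solute carriers move amino acids, ions, metals, nucleosides, sugars and vitamins down a gradient or coupled to another ion. ABC transporters spend ATP, and several of the C and G subfamilies export drugs, conjugates and nucleotides from the cell. In the blastocyst the outer epithelium, the trophectoderm, takes up nutrients through such carriers and moves ions and water into the cavity.

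Values are log2 ratios of a sample to a common reference RNA, averaged over its 2 dye-swapped arrays and centred on each array's median, so that a level is relative to the median probe and cannot be set against that of another gene. The ratio was read as Cy5 over Cy3, which is likely and not stated in the labels. Under this reading 8 of 11 measured fibroblast and matrix genes were called lower in each kind of embryo than in donor cells. Calls have an adjusted p under 0.05 in the limma fit described below. THY1 was called higher in NT and AI embryos. Of the 15 measured trophectoderm genes 10 to 12 were called higher than in donor cells in each kind, with TFAP2A called lower. Of all genes 15.4% to 16.5% were called lower and 18.3% to 20.5% higher in these comparisons. The mean of the fibroblast list lay between -2.61 and -1.99 in NT, -2.58 and -1.89 in IVF and -2.68 and -2.21 in AI embryos, and at 1.01 and 1.05 in the donor cell samples. The 2 arrays of a donor cell sample correlated at 0.25 and 0.33 over all probes, and those of an embryo at 0.55 to 0.76. The mean of the trophectoderm list ran from 0.99 to 2.06 in NT, 1.53 to 2.29 in IVF and 1.74 to 2.49 in AI embryos. It was -0.36 and -0.12 in the donor cell samples. That of the 5 measured genes of an inner cell mass list ran from 0.16 to 0.77 in NT, -0.27 to 0.52 in IVF and 0.12 to 0.92 in AI embryos. In the donor cell samples it was 0.91 and 1.10, and none of the 5 genes was called higher in embryos than in donor cells. The 5 were SALL4, KLF4, STAT3, GATA6 and FN1, and POU5F1, NANOG and SOX2 of the list were not among the genes tested. For NT against IVF embryos FN1, KLF4 and STAT3 were called higher and SALL4 lower, so that their mean is no measure of inner cell mass. The part of these lists in the differences below was not tested.

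Differences are the first named kind minus the second on the log2 scale, with the standard error (SE) of a limma fit to all 46 samples, and calls are Benjamini-Hochberg adjusted p-values under 0.05 over all genes tested. NT embryos differed from AI embryos in 5 members, of which 2 were higher and 3 lower, and 7.96% of all genes passed this test (3.55% higher, 4.41% lower). NT differed from IVF embryos in 15 members (8 higher, 7 lower), against 24.1% of all genes (14.1% higher, 10.1% lower). IVF differed from AI embryos in 24 members (11 higher, 13 lower), which is 38.7% of the members against 29.1% of all genes (13.2% higher, 15.9% lower). The first 2 shares lie near those of all genes. With the sample in Cy5 alone the third was 25.8% of the members against 28.3% of all genes. The splits rest on centring each array: without it 21 members were higher and 1 lower for NT against AI (45% and 0.432% of all genes), 18 and 1 for NT against IVF (38.9% and 1.02%), and 7 and 5 for IVF against AI embryos (7.82% and 8.05%). The median probe then differed by 0.44, 0.37 and 0.08. The median member differed by -0.09 for NT minus AI, -0.03 for NT minus IVF and -0.09 for IVF minus AI, where the median of all genes was 0.02, 0.00 and 0.01. These 3 comparisons share their embryos, so each gene's values are given side by side. Of the 62 members 34 were called in none of them.

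**Figure D1:**
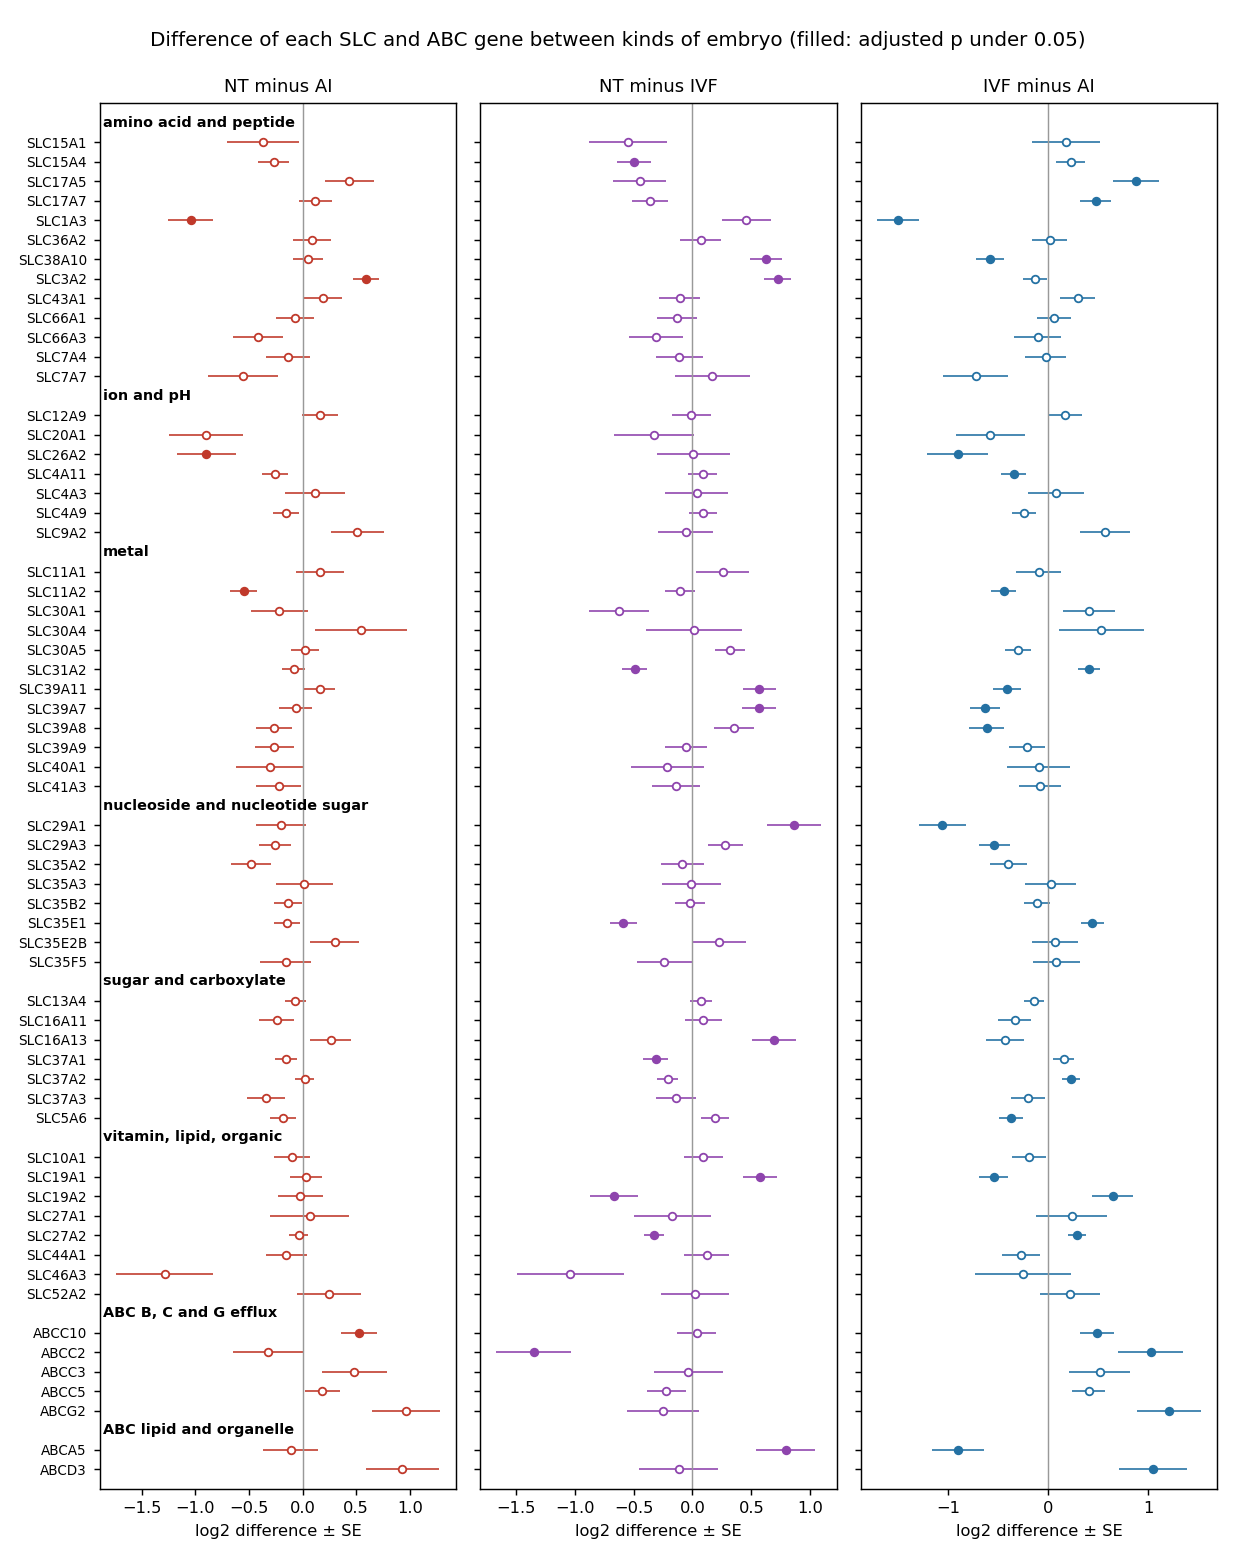
Differences of the 62 members between kinds of embryo, 1 panel per comparison, with log2 difference on the horizontal axis, SE as bars and filled points for an adjusted p under 0.05. The filled points number 5 for NT minus AI, 15 for NT minus IVF and 24 for IVF minus AI, and lie on both sides of 0 in each panel.

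Among the 13 amino acid and peptide carriers, the heavy chain SLC3A2 was higher in NT embryos than in both other kinds. SLC3A2 encodes the glycoprotein that brings the SLC7 light chains of amino acid exchange to the cell surface. SLC3A2 had log2 ratios (lowest, median, highest) of -0.21, 0.58 and 1.19 in NT, -0.38, -0.13 and 0.85 in IVF and -0.42, 0.08 and 0.53 in AI embryos, and 0.17 and 0.64 in donor cells. The NT values were the highest as a group but overlapped both others, and 14 of 15 NT embryos lay above each of the other means. The difference was 0.59 ± 0.12 against AI (a 1.5-fold higher level, adjusted p = 0.000893) and 0.72 ± 0.12 against IVF embryos (1.65-fold, adjusted p = 1.02e-05). It was -0.13 ± 0.12 for IVF minus AI (adjusted p = 0.436).

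SLC1A3, a sodium-coupled glutamate and aspartate carrier, was lower in both kinds of laboratory embryo than in AI embryos. Its log2 ratios (lowest, median, highest) were -3.33, -2.39 and -1.34 in NT, -3.80, -2.79 and -1.77 in IVF and -2.56, -1.32 and -0.48 in AI embryos, and both donor cell samples lay far below at -5.47 and -5.50. No NT or IVF embryo reached the AI mean, although the ranges overlapped. The difference from AI embryos was -1.04 ± 0.21 in NT (adjusted p = 0.000781) and -1.50 ± 0.21 in IVF embryos (adjusted p = 4.67e-07), or 2.06 and 2.83 times lower. NT minus IVF was 0.46 ± 0.21 (adjusted p = 0.105).

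SLC38A10, of the sodium-coupled neutral amino acid carrier family, was lowest in IVF embryos. Its values were -1.16, -0.52 and -0.15 in NT, -2.03, -1.25 and -0.53 in IVF and -1.56, -0.65 and 0.15 in AI embryos, with 0.36 and 0.54 in donor cells. All 15 NT embryos lay above the IVF mean and 1 of 15 IVF embryos above the AI mean, and every embryo was below both donor cell samples. The differences were 0.63 ± 0.14 for NT minus IVF (adjusted p = 0.000508), -0.58 ± 0.14 for IVF minus AI (adjusted p = 0.0012) and 0.05 ± 0.14 for NT minus AI (adjusted p = 0.888).

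The lysosomal sialic acid exporter SLC17A5 was higher in IVF than in AI embryos. Its values were -1.32, -0.45 and 1.20 in NT, -1.65, 0.23 and 0.74 in IVF and -2.15, -0.71 and 0.29 in AI embryos, and 1.05 and 0.98 in donor cells. The ranges overlapped, but 14 of 15 IVF embryos exceeded the AI mean, and the difference was 0.88 ± 0.23 (adjusted p = 0.00271). SLC17A7, a vesicular glutamate carrier, was also higher in IVF than in AI embryos, by 0.48 ± 0.15 (adjusted p = 0.0169). This call was lost under 4 of 15 alternatives, among them quantile normalisation and the sample in Cy3 alone, with adjusted p up to 0.11. SLC15A4, a lysosomal histidine and peptide carrier, was lower in NT than in IVF embryos (-0.50 ± 0.14, adjusted p = 0.00838), and both of its probes passed the test.

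The other 7 amino acid and peptide carriers, which were SLC15A1, SLC36A2, SLC43A1, SLC66A1, SLC66A3, SLC7A4 and SLC7A7, were called as genes in no comparison of embryos. NT minus IVF of SLC36A2 was -0.30 on one probe (adjusted p = 0.0131, limma fit to probes) and 0.44 on the other (adjusted p = 0.307). SLC7A7, a light chain that pairs with SLC3A2 in the exchange of cationic for neutral amino acids, had values of -2.34, 1.34 and 2.50 in NT, -0.63, 0.91 and 2.31 in IVF and -0.38, 1.87 and 2.87 in AI embryos. Its differences were -0.55 ± 0.32 for NT minus AI (adjusted p = 0.302), 0.17 ± 0.32 for NT minus IVF (adjusted p = 0.75) and -0.72 ± 0.32 for IVF minus AI (adjusted p = 0.085). SLC15A1, the intestinal-type peptide carrier, spanned -2.52 to 3.14 in NT embryos alone.

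**Figure D2:**
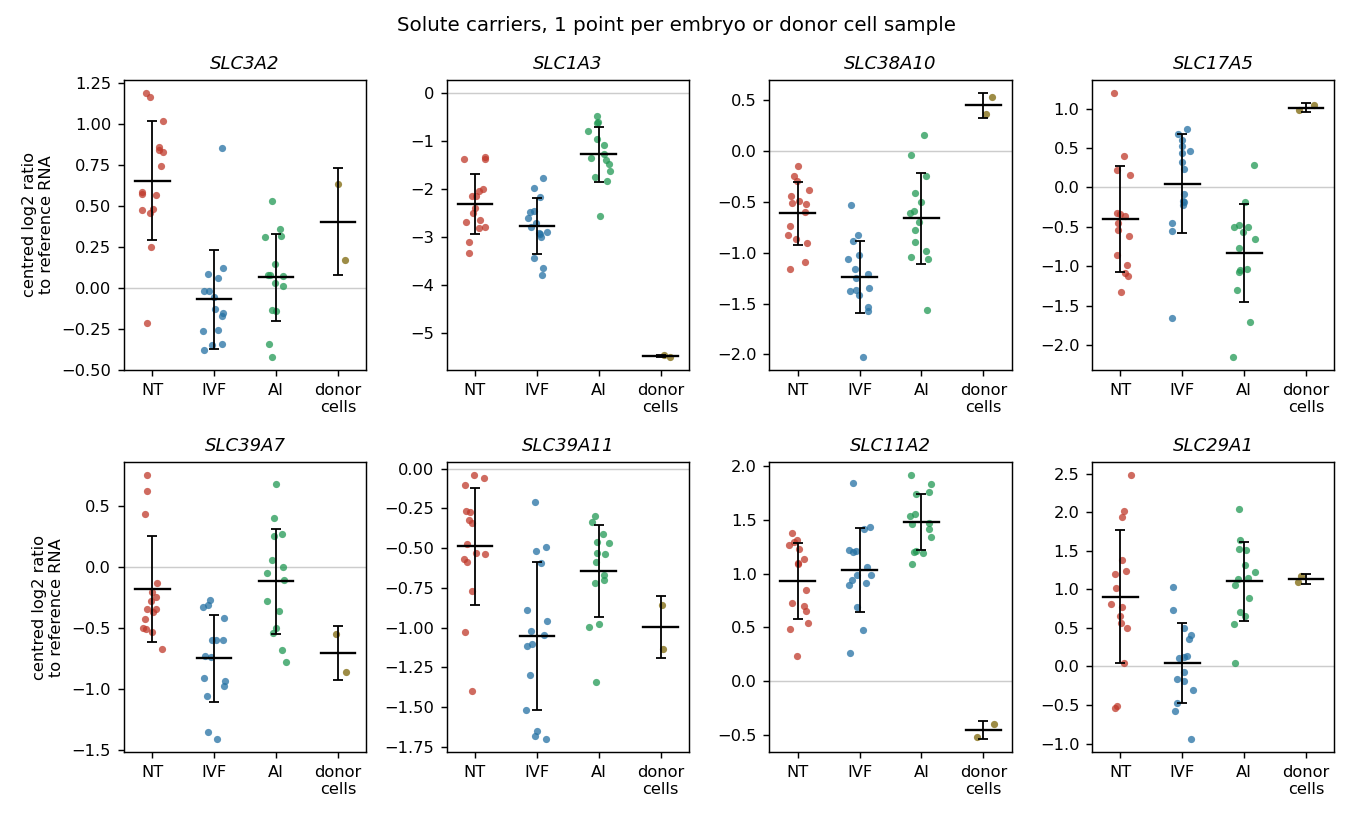
Centred log2 ratios of 8 solute carriers, with 1 point per embryo or donor cell sample, black lines for the group mean and bars for the SD. SLC3A2 sits highest in NT embryos, SLC1A3 is highest in AI embryos with the donor cells near -5.5, and SLC38A10, SLC39A7, SLC39A11 and SLC29A1 sit lowest among embryos in the IVF group.

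Genes of the amino acid response, a programme driven by the transcription factor ATF4 that includes serine synthesis and tRNA charging enzymes, were described beside these carriers. Of the 22 listed, 14 were measured. In NT against AI embryos 7 were higher and 0 lower (3.55% and 4.41% of all genes), in NT against IVF embryos 3 and 0 (14.1% and 10.1%), and in IVF against AI embryos 5 and 1 (13.2% and 15.9%). Their median differences were 0.57, 0.09 and 0.28, each above that of all genes. ATF4 itself averaged -0.23 in NT, -0.27 in IVF and -1.33 in AI embryos. PSPH, the enzyme that releases serine from phosphoserine, averaged -0.09 in NT, -2.00 in IVF and -2.56 in AI embryos. SARS1, the seryl-tRNA synthetase, averaged 0.09 in NT, -0.95 in IVF and -0.73 in AI embryos. These genes were chosen with earlier results of these data known, and any link between them and the carriers was not tested.

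Of the 7 ion and pH carriers, 1 was lower in NT and 2 were lower in IVF embryos than in AI embryos, and none passed adjustment between NT and IVF embryos. SLC26A2, a sulfate carrier, had values of -1.26, -0.35 and 0.60 in NT, -1.93, -0.71 and 1.79 in IVF and -0.45, 0.70 and 1.57 in AI embryos, and 0.58 and 0.39 in donor cells. It was measured in 12 NT, 9 IVF and 14 AI embryos, and the AI values were the highest as a group with ranges that overlapped. The differences from AI were -0.90 ± 0.28 in NT (adjusted p = 0.0397) and -0.90 ± 0.30 in IVF embryos (adjusted p = 0.0217). On the arrays with the sample in Cy5 alone they had the other sign, at 0.72 and 0.47, with neither past the threshold.

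SLC4A11, of the bicarbonate carrier family, was lower in IVF than in AI embryos (-0.34 ± 0.12, adjusted p = 0.0297), and 3 of 15 IVF embryos exceeded the AI mean. It did not pass with the sample in Cy5 alone (adjusted p = 0.125) or in Cy3 alone (adjusted p = 0.0853). The phosphate carrier SLC20A1 had values of -1.89, -0.38 and 1.28 in NT, -1.36, -0.33 and 1.45 in IVF and -1.24, 0.34 and 2.96 in AI embryos and differed by -0.90 ± 0.35 between NT and AI embryos (adjusted p = 0.0932). The sodium-proton exchanger SLC9A2, the anion exchangers SLC4A3 and SLC4A9, and SLC12A9 of the cation-chloride family were not called as genes between embryos. For SLC12A9 IVF minus AI was 0.50 on one probe (adjusted p = 0.00122, limma fit to probes). Its other probes gave 0.39 and -0.27 and were not called.

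Of the 12 metal carriers, 3 of the zinc-importing SLC39 family were lower in IVF than in AI embryos. SLC39A7 releases zinc from the endoplasmic reticulum and its values were -0.67, -0.34 and 0.75 in NT, -1.41, -0.73 and -0.27 in IVF and -0.78, -0.08 and 0.68 in AI embryos, with -0.86 and -0.55 in donor cells. No IVF embryo reached the AI mean and all 15 NT embryos exceeded the IVF mean, although the ranges overlapped. The differences were -0.63 ± 0.15 for IVF minus AI (adjusted p = 0.00111) and 0.57 ± 0.15 for NT minus IVF (adjusted p = 0.00345), and both of its probes passed in each comparison.

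SLC39A11, of the same family, had values of -1.40, -0.47 and -0.04 in NT, -1.70, -1.05 and -0.21 in IVF and -1.34, -0.56 and -0.30 in AI embryos. IVF embryos were again the lowest group, with differences of 0.57 ± 0.14 for NT minus IVF (adjusted p = 0.00203) and -0.41 ± 0.14 for IVF minus AI (adjusted p = 0.0253). SLC39A8, a zinc and manganese importer, was lower in IVF than in AI embryos (-0.62 ± 0.17, adjusted p = 0.00479). Only 1 of its 2 probes passed there, with -0.94 against -0.34 for the other.

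SLC11A2, the divalent metal carrier of iron uptake, was lower in both kinds of laboratory embryo than in AI embryos. Its values were 0.24, 1.09 and 1.38 in NT, 0.26, 0.99 and 1.84 in IVF and 1.09, 1.47 and 1.92 in AI embryos, and -0.52 and -0.40 in donor cells. The lowest AI embryo lay at the NT median, and no NT embryo reached the AI mean. The differences were -0.55 ± 0.13 for NT minus AI (adjusted p = 0.00421) and -0.45 ± 0.13 for IVF minus AI (adjusted p = 0.00692). Without centring of the arrays NT minus AI was -0.13 (adjusted p = 0.561). Both calls of SLC11A2 were lost without centring and with the sample in Cy3 alone, with adjusted p up to 0.136 for IVF minus AI. The NT minus AI call was also lost with only the NT embryos labelled 2_.

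SLC31A2, a copper carrier, was highest among embryos in the IVF group, with values of -0.67, -0.08 and 0.40 in NT, 0.06, 0.31 and 1.06 in IVF and -0.51, -0.10 and 0.49 in AI embryos, and 1.32 and 1.27 in donor cells. All 15 IVF embryos exceeded the AI mean, and 1 of 15 NT embryos exceeded the IVF mean. The differences were -0.49 ± 0.10 for NT minus IVF (adjusted p = 0.000439) and 0.41 ± 0.11 for IVF minus AI (adjusted p = 0.00295). The first was -0.11 without centring (adjusted p = 0.530), and the second was 0.16 with the sample in Cy5 alone (adjusted p = 0.401).

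The zinc exporters SLC30A1, SLC30A4 and SLC30A5, the zinc carrier SLC39A9, the iron exporter SLC40A1, SLC11A1, a metal carrier of phagosomes, and the magnesium carrier SLC41A3 were not called between embryos. SLC30A1, the zinc exporter of the plasma membrane, had values of -0.99, 0.74 and 1.89 in NT, -0.19, 1.48 and 1.88 in IVF and -0.74, 0.78 and 2.02 in AI embryos, and NT minus IVF was -0.62 ± 0.26 (adjusted p = 0.07). The mean of SLC41A3 hides probes that disagreed. NT minus IVF was -1.08 ± 0.33 on one probe and 0.62 ± 0.19 on the other, with adjusted p = 0.0135 and adjusted p = 0.0137 in the limma fit to probes.

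Both equilibrative nucleoside carriers were lower in IVF than in AI embryos, SLC29A1 on each of its probes and SLC29A3 on 1 of 2. SLC29A1, which carries nucleosides across the plasma membrane, had values of -0.53, 0.81 and 2.48 in NT, -0.94, 0.11 and 1.04 in IVF and 0.04, 1.14 and 2.05 in AI embryos, and 1.18 and 1.09 in donor cells. No IVF embryo reached the AI mean, and the IVF group was the lowest with ranges that overlapped. The differences were -1.06 ± 0.23 for IVF minus AI (adjusted p = 0.00049) and 0.86 ± 0.23 for NT minus IVF (adjusted p = 0.00423), and both of its probes passed in each, at 0.97 and 0.75 for NT minus IVF. With the sample in Cy3 alone NT minus IVF was 0.60 (adjusted p = 0.209).

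SLC29A3, the lysosomal nucleoside carrier, had values of -0.60, -0.17 and 0.51 in NT, -1.40, -0.30 and -0.09 in IVF and -1.10, 0.13 and 0.59 in AI embryos. No IVF embryo reached the AI mean, and IVF minus AI was -0.54 ± 0.15 (adjusted p = 0.00591). NT minus AI was -0.26 ± 0.15 (adjusted p = 0.308). IVF minus AI was -1.08 on one probe (adjusted p = 0.0052 in the limma fit to probes) and 0.01 on the other (adjusted p = 0.948), and deviations of the 2 probes from the group means correlated at -0.17 over the embryos.

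Of the SLC35 family, which carries nucleotide sugars into the Golgi and endoplasmic reticulum, only SLC35E1, a member with no settled substrate, was called between embryos. It had values of -1.43, -1.09 and -0.42 in NT, -1.43, -0.36 and 0.29 in IVF and -1.15, -0.89 and -0.46 in AI embryos, so that the IVF group was the highest and no NT embryo reached the IVF mean. The differences were -0.59 ± 0.12 for NT minus IVF (adjusted p = 0.00015) and 0.44 ± 0.12 for IVF minus AI (adjusted p = 0.00339), and NT minus IVF was -0.21 without centring (adjusted p = 0.356). The UDP-galactose carrier SLC35A2 differed by -0.48 ± 0.19 between NT and AI embryos (adjusted p = 0.0952). SLC35A3, SLC35B2, SLC35E2B and SLC35F5 were not called.

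Among 7 genes of sugar and carboxylate carrier families, SLC16A13, of the monocarboxylate family, was higher in NT than in IVF embryos. Its values were 0.40, 1.35 and 2.40 in NT, -0.05, 0.60 and 1.87 in IVF and 0.24, 1.02 and 2.14 in AI embryos, and -0.04 and 0.21 in donor cells. With 13 of 15 NT embryos above the IVF mean the difference was 0.69 ± 0.19 (adjusted p = 0.00472). SLC5A6, a family member that carries biotin and pantothenate rather than sugar, was lower in IVF than in AI embryos (-0.37 ± 0.12, adjusted p = 0.0152) in the mean of its probes, neither of which passed alone, at -0.41 and -0.33.

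Members of the SLC37 sugar phosphate family showed small differences. SLC37A1 was lower in NT than in IVF embryos (-0.31 ± 0.10, adjusted p = 0.023), and no NT embryo reached the IVF mean, but the difference was 0.07 without centring. SLC37A2 was higher in IVF than in AI embryos by 0.23 ± 0.09 (adjusted p = 0.0444). SLC37A3, the sulfate carrier SLC13A4 and SLC16A11 were not called as genes, and NT minus AI was -0.34 ± 0.17 for SLC37A3 (adjusted p = 0.224). NT minus IVF of SLC37A3 was -0.48 and -0.44 on separate probes (adjusted p = 0.0095 and 0.0319, limma fit to probes). Its remaining probe gave 0.50 (adjusted p = 0.402). For SLC16A11 IVF minus AI was -0.56 on one probe (adjusted p = 0.0235, limma fit to probes) and -0.11 on the other (adjusted p = 0.77).

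The folate and thiamine carriers of the SLC19 family, vitamin carriers of related sequence, differed in opposite directions in IVF embryos. SLC19A1, the reduced folate carrier, had values of -1.21, -0.63 and 0.18 in NT, -1.73, -1.21 and -0.62 in IVF and -1.13, -0.80 and 0.18 in AI embryos, and -0.20 and 0.01 in donor cells. The IVF group was the lowest, with 0.58 ± 0.14 for NT minus IVF (adjusted p = 0.00235) and -0.55 ± 0.15 for IVF minus AI (adjusted p = 0.00379). SLC19A2, the thiamine carrier, had values of -0.22, 0.27 and 0.59 in NT, -0.66, 0.87 and 1.79 in IVF and -1.27, 0.26 and 1.41 in AI embryos. Here the IVF group was the highest and no NT embryo reached its mean, with -0.67 ± 0.20 for NT minus IVF (adjusted p = 0.0131) and 0.65 ± 0.21 for IVF minus AI (adjusted p = 0.0158). The NT minus IVF call of SLC19A2 was lost under 4 of 16 alternatives, among them the sample in Cy5 alone. With the sample in Cy5 alone its IVF minus AI call was also lost (adjusted p = 0.0878).

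SLC27A2, a very long chain acyl-CoA synthetase of the fatty acid transport family, was higher in IVF embryos by a small amount. Its values were -0.83, -0.39 and -0.14 in NT, -0.35, -0.23 and 0.43 in IVF and -0.67, -0.43 and -0.08 in AI embryos, and all 15 IVF embryos exceeded the AI mean. The differences were -0.33 ± 0.08 for NT minus IVF (adjusted p = 0.00322) and 0.29 ± 0.09 for IVF minus AI (adjusted p = 0.00862), and the first was 0.05 without centring. The lysosomal carrier SLC46A3 had the lowest NT minus AI difference of the members, -1.29 ± 0.45 (adjusted p = 0.0766), from 10 NT and 8 AI embryos with a value. The bile acid carrier SLC10A1, the fatty acid carrier SLC27A1, the choline carrier SLC44A1 and the riboflavin carrier SLC52A2 were not called.

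All 5 measured exporters of the ABC C and G subfamilies had positive IVF minus AI differences, from 0.41 to 1.21, where the median of all genes was 0.01. Of the 5 exporters 3 were called higher, where 13.2% of all genes were called higher, and ABCC3 and ABCC5 were not called. ABCC2, which exports glutathione and glucuronide conjugates at the apical face of polarised cells, had values of -0.90, 1.78 and 2.46 in NT, 1.78, 2.95 and 3.57 in IVF and -0.75, 1.86 and 4.04 in AI embryos, and 0.39 and 0.40 in donor cells. The IVF group was the highest: 11 of 15 IVF embryos lay above the highest NT embryo, and 7 of 14 AI embryos lay below the lowest IVF embryo, while 1 AI embryo lay above all others. ABCC2 was 2.54 times lower in NT than in IVF embryos (-1.35 ± 0.32, adjusted p = 0.00129), and higher in IVF than in AI embryos by 1.02 ± 0.32, or 2.03-fold (adjusted p = 0.0137). NT minus AI was -0.32 ± 0.32 (adjusted p = 0.599).

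ABCG2, the exporter of drugs and porphyrins that also secretes vitamins into milk, had values of -2.81, -1.88 and -0.27 in NT, -3.14, -1.31 and -0.09 in IVF and -3.72, -2.65 and -1.33 in AI embryos, and -2.41 and 0.22 in donor cells. The AI group was the lowest, from 13 embryos with a value, with ranges that overlapped. IVF minus AI was 1.21 ± 0.32, or 2.32-fold (adjusted p = 0.00306), and 14 of 15 IVF embryos exceeded the AI mean. With the sample in Cy3 alone it was 0.70 (adjusted p = 0.0563). NT minus AI was 0.96 ± 0.32 (adjusted p = 0.0512), and it passed under 6 of 17 alternatives, among them the fit to all 92 arrays at 0.99 (adjusted p = 0.00688). Over these alternatives it ran from 0.74 to 1.37, with adjusted p from 0.00299 to 0.162. NT minus IVF was -0.25 ± 0.31 (adjusted p = 0.6).

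ABCC5, which exports cyclic nucleotides and antifolates, had values of 0.64, 1.44 and 2.07 in NT, 0.61, 1.73 and 2.27 in IVF and 0.46, 1.28 and 2.23 in AI embryos, and -2.52 and -1.59 in donor cells. The 3 kinds of embryo overlapped almost throughout, and no embryo was as low as a donor cell sample. Its differences were 0.18 ± 0.17 for NT minus AI (adjusted p = 0.551), -0.22 ± 0.16 for NT minus IVF (adjusted p = 0.346) and 0.41 ± 0.17 for IVF minus AI (adjusted p = 0.0609). IVF minus AI passed with quantile normalisation, at 0.47 (adjusted p = 0.0309).

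ABCC10, an exporter of the same subfamily, was higher in both kinds of laboratory embryo than in AI embryos. Its values were -1.84, -1.05 and -0.37 in NT, -1.65, -1.16 and -0.40 in IVF and -2.37, -1.50 and -0.72 in AI embryos, and 0.29 and 0.43 in donor cells. The differences were 0.52 ± 0.17 for NT minus AI (adjusted p = 0.0403) and 0.49 ± 0.17 for IVF minus AI (adjusted p = 0.0217), with 13 of 15 embryos above the AI mean in each. Quantile normalisation gave 0.43 for the first (adjusted p = 0.0782). The NT minus AI call was lost under 6 of 17 alternatives, among them the sample in Cy5 alone, with adjusted p up to 0.276. The IVF minus AI call was lost with the sample in Cy3 alone (adjusted p = 0.0933). ABCC3, which exports conjugates at the basolateral face, had values of -3.01, -2.23 and -0.90 in NT, -3.03, -2.18 and 0.63 in IVF and -3.56, -2.40 and -1.97 in AI embryos and was not called between embryos.

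**Figure D3:**
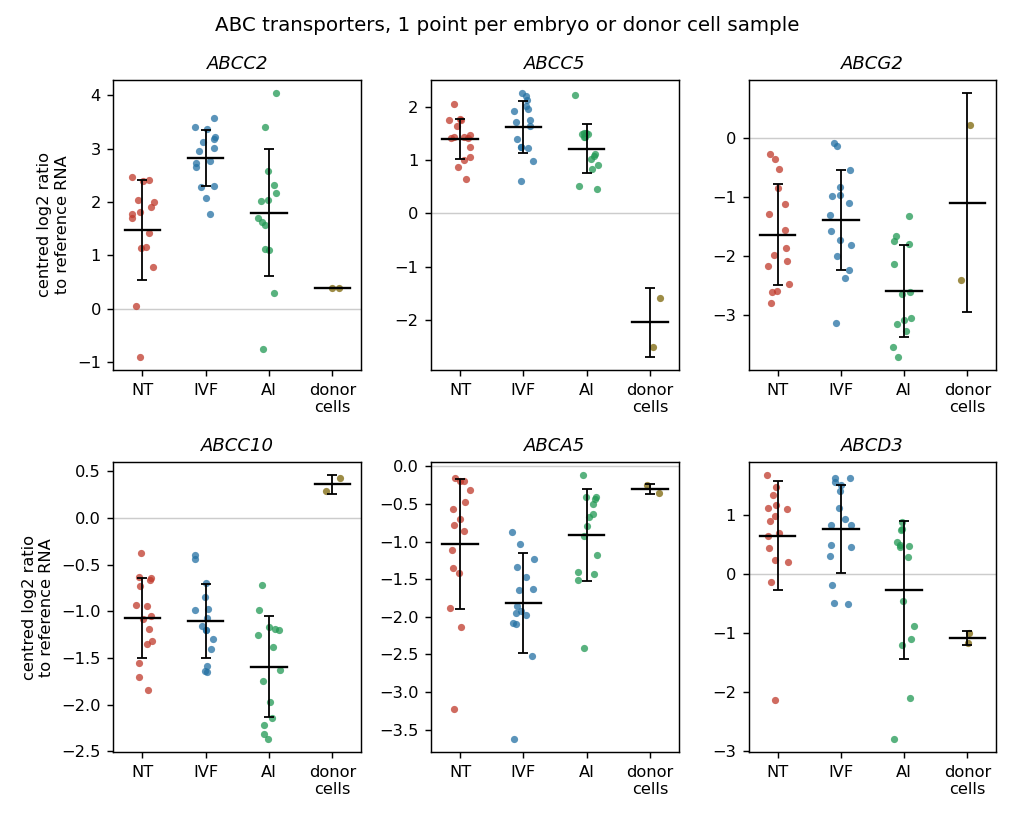
Centred log2 ratios of 6 ABC transporters, with 1 point per embryo or donor cell sample, black lines for the group mean and bars for the SD. ABCC2 is highest in IVF embryos, ABCG2 lowest in AI embryos, and ABCC5 lies above 0 in every embryo and below -1.5 in both donor cell samples.

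The other ABC genes were ABCA5, a lysosomal lipid transporter, and ABCD3, which brings fatty acids into peroxisomes. ABCA5 had values of -3.23, -0.78 and -0.16 in NT, -3.63, -1.85 and -0.88 in IVF and -2.42, -0.74 and -0.12 in AI embryos, and -0.25 and -0.35 in donor cells. It was lowest in IVF embryos, with 0.79 ± 0.25 for NT minus IVF (adjusted p = 0.0178) and -0.90 ± 0.26 for IVF minus AI (adjusted p = 0.00648). ABCD3 had values of -2.15, 0.91 and 1.69 in NT, -0.51, 0.84 and 1.64 in IVF and -2.81, 0.39 and 0.89 in AI embryos, and averaged -1.09 in the 2 donor cell samples. IVF embryos were higher than AI embryos by 1.05 ± 0.34 (adjusted p = 0.0158), and NT minus AI was 0.93 ± 0.34 (adjusted p = 0.0764).

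The call of SLC37A1 for NT against IVF embryos and those of SLC37A2 and SLC4A11 for IVF against AI embryos passed in neither dye orientation alone. For SLC37A2 the difference was 0.20 with the sample in Cy5 alone (adjusted p = 0.206) and 0.26 in Cy3 alone (adjusted p = 0.116), and 7 of 15 alternatives lost the call. Some other calls passed with only 1 dye orientation. With the sample in Cy5 alone the IVF minus AI difference of SLC27A2 was 0.03 (adjusted p = 0.878), and that of SLC39A11 was -0.29 (adjusted p = 0.179). With the sample in Cy3 alone that of SLC5A6 was -0.11 (adjusted p = 0.71), and that of SLC19A1 was -0.31 (adjusted p = 0.175). Without centring, NT minus IVF was -0.12 for SLC15A4 (adjusted p = 0.658) and -0.29 for SLC19A2 (adjusted p = 0.287). The calls that passed under every alternative run were SLC1A3 and SLC3A2 for NT against AI embryos. For NT against IVF embryos they were ABCC2, SLC19A1, SLC38A10, SLC39A11, SLC39A7 and SLC3A2, and for IVF against AI embryos ABCA5, ABCC2, SLC17A5, SLC1A3, SLC38A10 and SLC39A7.

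Several ABC C exporters are known in mice as targets of the oxidative stress factor NRF2, encoded by NFE2L2, and 8 of 23 listed NRF2 and dioxin receptor genes were measured. In NT against IVF embryos 1 was higher and 4 lower (14.1% and 10.1% of all genes), in IVF against AI embryos 4 were higher and 1 lower (13.2% and 15.9%), and in NT against AI embryos none passed adjustment (7.96% of all genes). HMOX1, haem oxygenase, averaged -1.54 in NT, 0.00 in IVF and -1.88 in AI embryos. TXNRD1, thioredoxin reductase, averaged 1.27 in NT, 2.38 in IVF and 1.11 in AI embryos. GCLM, a subunit of glutathione synthesis, was lower in IVF than in AI embryos (-0.68 ± 0.25, adjusted p = 0.0321). NQO1, of the same list, averaged -0.95 in NT, -1.035 in IVF and -1.33 in AI embryos and was called in no comparison of embryos. Any link between these genes and the exporters was not tested.

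Of 38 listed transport proteins outside the SLC and ABC rule, 15 were measured. In NT against AI embryos 1 was higher and 2 lower, in NT against IVF embryos 3 and 1, and in IVF against AI embryos 2 and 4, where 7.96%, 24.1% and 29.1% of all genes were called. The sodium pump subunit ATP1B3 averaged 2.24 in NT, 1.54 in IVF and 2.10 in AI embryos. The potassium channel KCNK1 averaged -2.56 in NT, -2.11 in IVF and -3.67 in AI embryos, with 1.10 ± 0.27 for NT minus AI (adjusted p = 0.00695). Of 12 listed hypoxia genes 8 were measured, with 1 higher and 0 lower for NT against AI embryos, 1 and 1 for NT against IVF embryos, and 2 and 0 for IVF against AI embryos, against the same shares of all genes.

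NT embryos differed from donor cells in 23 members (14 higher, 9 lower), against 35.4% of all genes (19.9% higher, 15.4% lower). IVF embryos differed from donor cells in 23 members (13 higher, 10 lower), against 34.3% of all genes (18.3% higher, 16% lower). AI embryos differed from donor cells in 22 members (13 higher, 9 lower), against 37% of all genes (20.5% higher, 16.5% lower). These shares lie near those of all genes. Without centring 12 were higher and 4 lower in NT (18.9% and 8.5% of all genes), 7 and 8 in IVF (9.25% and 14.3%), and 8 and 9 in AI embryos (10.7% and 15.7%). The 3 comparisons share the same 2 donor cell samples, and the embryo kinds are therefore set side by side with no overlap taken as a result. Differences of at least 2-fold were called in 19 members for NT (25.6% of all genes), 19 for IVF (24.1%) and 15 for AI embryos (27.2%).

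ABCC5 was higher in embryos by 3.46 ± 0.34 in NT (adjusted p = 7.47e-12), 3.68 ± 0.34 in IVF (adjusted p = 1.3e-12) and 3.27 ± 0.34 in AI embryos (adjusted p = 3.98e-11), or 11.0-fold, 12.8-fold and 9.68-fold. SLC1A3 was higher by 3.17 ± 0.43 in NT (adjusted p = 4.22e-08), 2.71 ± 0.43 in IVF (adjusted p = 1.29e-06) and 4.21 ± 0.43 in AI embryos (adjusted p = 2.52e-11). For both genes every embryo lay above both donor cell samples. The intensity behind a ratio as low as that of SLC1A3 in donor cells was not analysed here.

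Amino acid and peptide carriers that were higher in embryos were SLC7A7 by 1.96 ± 0.65 in NT, 1.79 ± 0.65 in IVF and 2.52 ± 0.66 in AI embryos (highest adjusted p = 0.0286), SLC15A4 by 1.38 ± 0.30 in NT, 1.88 ± 0.30 in IVF and 1.65 ± 0.30 in AI embryos (highest adjusted p = 0.00019) and SLC66A1, a lysosomal exporter of cationic amino acids, by 0.91 ± 0.35 in NT, 1.04 ± 0.35 in IVF and 0.98 ± 0.35 in AI embryos (highest adjusted p = 0.0378). The donor values of SLC66A1 were -1.24 and 0.54, and the second lay within the range of each kind of embryo. SLC38A10 was lower, with differences of -1.06 ± 0.28 in NT, -1.69 ± 0.28 in IVF and -1.11 ± 0.28 in AI embryos (highest adjusted p = 0.00215). SLC17A5 was lower in NT embryos (-1.42 ± 0.46, adjusted p = 0.0135) and in AI embryos (-1.85 ± 0.47, adjusted p = 0.00128), and differed by -0.97 ± 0.46 in IVF embryos (adjusted p = 0.104). SLC66A3 was lower in NT embryos (-1.28 ± 0.47, adjusted p = 0.028). SLC36A2 was not called in the mean of its probes. One probe gave -1.33 in NT, -1.03 in IVF and -1.06 in AI embryos and was called in each. The other gave 0.07, -0.37 and -0.22 and was called in none.

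Metal carriers that were higher in embryos included SLC11A2, by 1.39 ± 0.26 in NT, 1.50 ± 0.26 in IVF and 1.94 ± 0.26 in AI embryos (highest adjusted p = 2.64e-05), with every embryo above both donor cell samples. SLC30A1 was higher by 1.49 ± 0.53 in NT, 2.12 ± 0.53 in IVF and 1.71 ± 0.53 in AI embryos (highest adjusted p = 0.0232), and its donor values of -1.98 and 0.37 were far apart. SLC39A8 was higher by 1.43 ± 0.34 in NT, 1.08 ± 0.34 in IVF and 1.70 ± 0.35 in AI embryos (highest adjusted p = 0.0118) in the mean of its probes. These probes disagreed, since IVF minus donor cells was 3.34 ± 0.51 on one (adjusted p = 7.37e-07, limma fit to probes) and -1.18 ± 0.44 on the other (adjusted p = 0.0356). The copper carrier SLC31A2 was lower, with differences of -1.42 ± 0.22 in NT, -0.93 ± 0.22 in IVF and -1.33 ± 0.22 in AI embryos (highest adjusted p = 0.00061), and the zinc carrier SLC30A5 was lower in IVF embryos (-0.65 ± 0.26, adjusted p = 0.0472).

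The biotin and pantothenate carrier SLC5A6 was higher in embryos by 1.58 ± 0.24 in NT, 1.39 ± 0.24 in IVF and 1.76 ± 0.24 in AI embryos (highest adjusted p = 7.74e-06) in the mean of its probes. This rests on 1 of its 2 probes, which gave 2.97 in NT, 2.60 in IVF and 3.01 in AI embryos and was called in each. The other gave 0.18, 0.17 and 0.51 and was called in none. Deviations of the 2 probes from the group means correlated at -0.06. SLC37A1 was higher by 0.69 ± 0.21 in NT, 1.01 ± 0.21 in IVF and 0.85 ± 0.22 in AI embryos (highest adjusted p = 0.00851) and the sulfate carrier SLC13A4 by 0.58 ± 0.20 in NT, 0.51 ± 0.20 in IVF and 0.65 ± 0.20 in AI embryos (highest adjusted p = 0.0381). SLC16A13 was higher by 1.23 ± 0.38 in NT (adjusted p = 0.0094) and 0.97 ± 0.39 in AI embryos (adjusted p = 0.0435). SLC4A11 was higher by 0.67 ± 0.25 in NT (adjusted p = 0.0324) and 0.92 ± 0.25 in AI embryos (adjusted p = 0.00269), whereas its relative SLC4A9, an anion exchanger, was lower, with differences of -1.09 ± 0.25 in NT, -1.18 ± 0.25 in IVF and -0.94 ± 0.25 in AI embryos (highest adjusted p = 0.00226).

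SLC44A1, the choline carrier, was lower in embryos, with differences of -1.89 ± 0.39 in NT, -2.01 ± 0.39 in IVF and -1.74 ± 0.39 in AI embryos (highest adjusted p = 0.00038). It had values of -1.81, -1.06 and -0.01 in NT, -2.61, -1.06 and -0.70 in IVF and -2.08, -0.70 and -0.13 in AI embryos, and both donor cell samples lay above every embryo at 0.68 and 0.91. The folate carrier SLC19A1 was lower in IVF embryos (-1.09 ± 0.30, adjusted p = 0.0031). SLC35F5 was lower, with differences of -1.57 ± 0.48 in NT, -1.33 ± 0.48 in IVF and -1.41 ± 0.48 in AI embryos (highest adjusted p = 0.0267). SLC35E1 was lower in NT embryos (-1.05 ± 0.24, adjusted p = 0.000402) and in AI embryos (-0.91 ± 0.24, adjusted p = 0.00213), and SLC29A3 in IVF embryos (-0.77 ± 0.31, adjusted p = 0.0479).

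ABCC10 was lower in embryos, with differences of -1.43 ± 0.34 in NT, -1.46 ± 0.34 in IVF and -1.95 ± 0.34 in AI embryos (highest adjusted p = 0.00062), with no overlap. ABCC2 was higher in IVF embryos by 2.43 ± 0.66 (adjusted p = 0.00284) and differed by 1.09 ± 0.66 in NT (adjusted p = 0.21) and 1.41 ± 0.66 in AI embryos (adjusted p = 0.0897). ABCD3 was higher by 1.74 ± 0.68 in NT (adjusted p = 0.0418) and 1.86 ± 0.68 in IVF embryos (adjusted p = 0.0296), and ABCA5 was lower in IVF embryos (-1.52 ± 0.52, adjusted p = 0.0198). The donor values of ABCG2 and ABCC3 were far apart, at -2.41 and 0.22 and at 0.71 and -2.75. In the main fit ABCG2 passed no test against donor cells. Its AI minus donor cells difference passed with the sample in Cy5 alone and in the fit to all 92 arrays. ABCC3, lower in AI embryos (-1.50 ± 0.61, adjusted p = 0.0491), had a difference of 0.24 without the donor cell sample numbered 8.

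With 1 of the 2 donor cell samples left out, the members called were 11 without the sample numbered 8 and 15 without that numbered 9 for NT embryos (23.2% and 23.1% of all genes), 14 and 17 for IVF embryos (22.2% and 22%), and 16 and 19 for AI embryos (24.6% and 24.2%). Without the sample numbered 8, SLC66A1 differed by 0.02 in NT, 0.15 in IVF and 0.09 in AI embryos, SLC30A1 by 0.32, 0.94 and 0.53, and SLC39A8 by 0.91, 0.56 and 1.18 (adjusted p = 0.162, 0.455 and 0.0578). Without that numbered 9, SLC13A4 differed by 0.23 in NT, 0.16 in IVF and 0.30 in AI embryos. None of these passed adjustment. The call of SLC35F5 in every kind of embryo, and those of ABCA5, ABCD3, SLC16A13, SLC29A3, SLC30A5 and SLC66A3, were lost whichever sample was left out, as were those of SLC17A5, SLC37A1 and SLC4A11 in NT embryos and of SLC7A7 in NT and IVF embryos. The calls of SLC35E1 were lost only on leaving out the sample numbered 8. Those lost only on leaving out that numbered 9 were SLC38A10 in NT, SLC19A1 in IVF and SLC4A11 in AI embryos. ABCC5, SLC1A3, SLC11A2, SLC15A4, SLC5A6 and SLC44A1 passed in each kind of embryo under every alternative run.

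**Figure D4:**
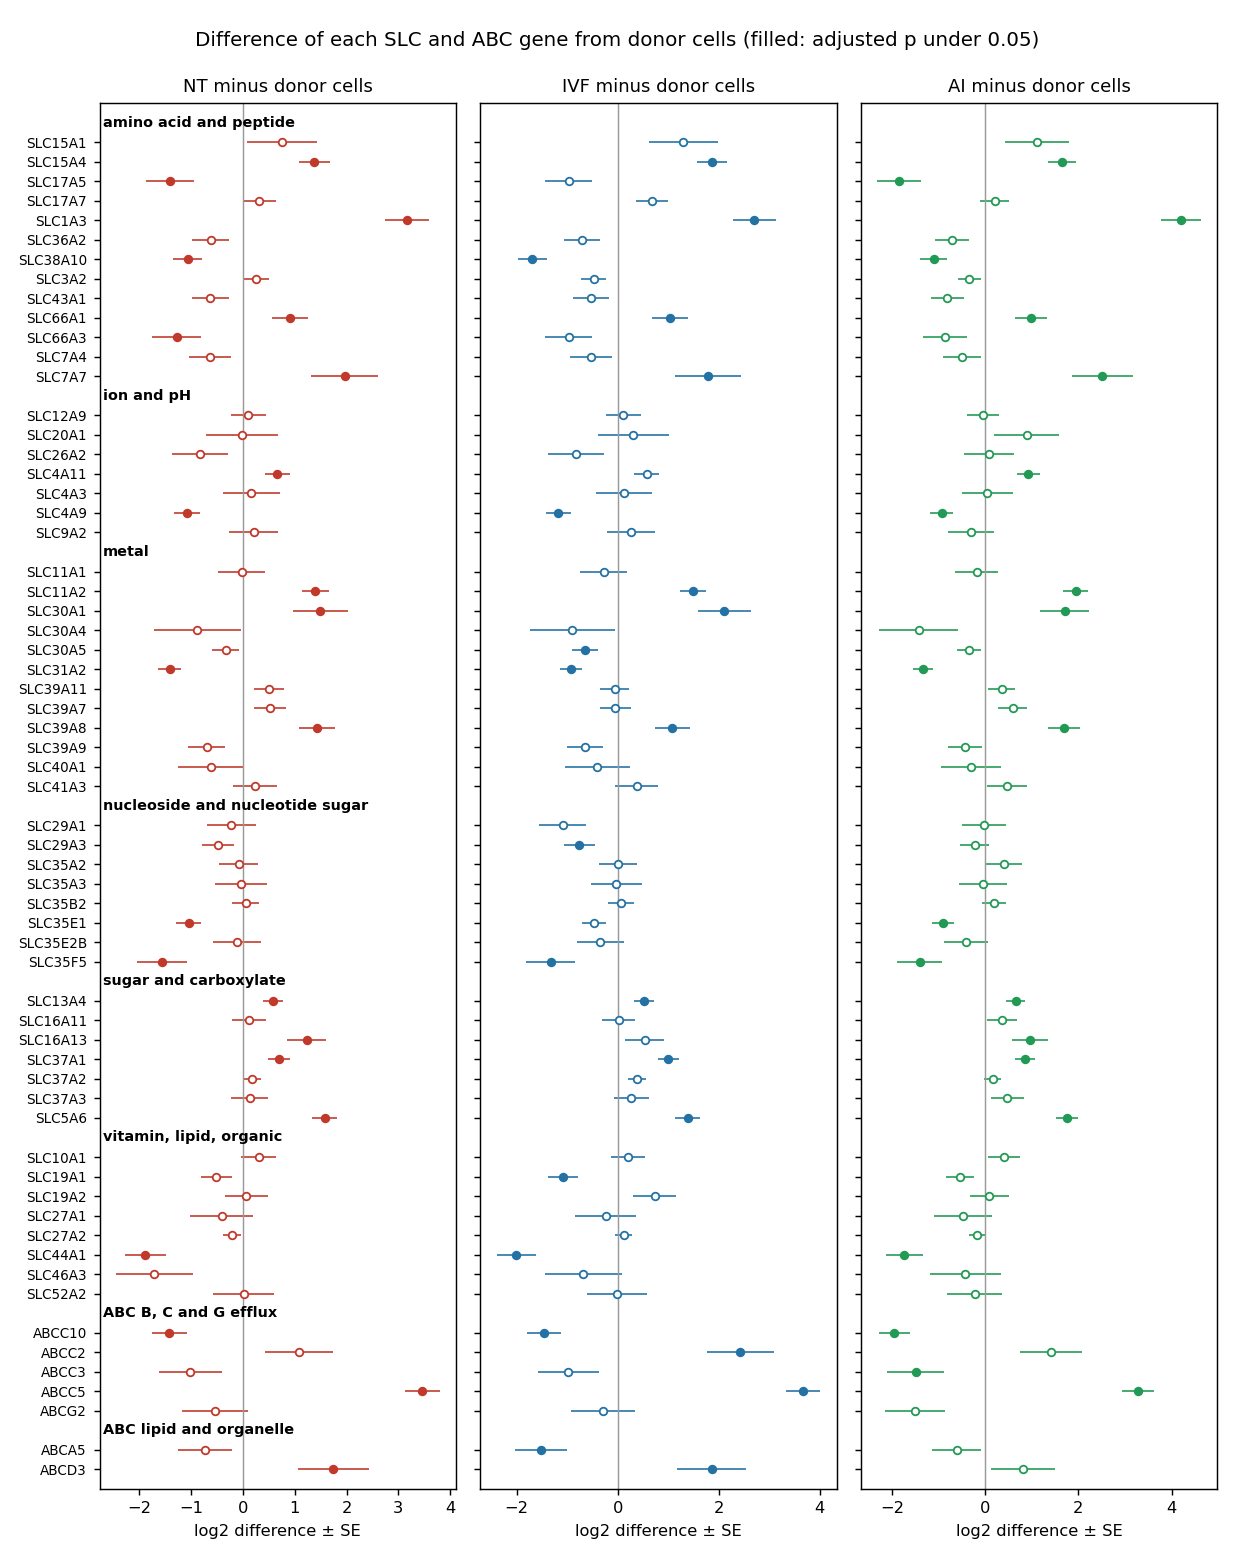
Differences of the 62 members from donor cells, 1 panel per kind of embryo, with log2 difference on the horizontal axis, SE as bars and filled points for an adjusted p under 0.05. ABCC5 and SLC1A3 lie farthest to the right, between 2.71 and 4.21, and SLC44A1 and ABCC10 lie to the left of -1.4 in each panel.

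At the level of probes, members called were 5 of 79 for NT against AI (3 of them lower; 7.43% of all probes, 4.29% lower), 23 for NT against IVF (22.8%) and 27 for IVF against AI embryos (26.1%). They were 26 for NT (31.4%), 25 for IVF (31.1%) and 25 for AI embryos (33%) against donor cells. Of the 62 members 48 had 1 probe, 11 had 2 and 3 had 3. All probes of a gene had differences of the same sign in 9 of the 14 genes with several probes for NT minus AI, in 8 for NT minus IVF and in 6 for IVF minus AI. Over the embryos, deviations from the group means correlated at 0.91 between the probes of SLC39A7 and at 0.83 between those of SLC15A4, whereas the lowest correlation was -0.19, between probes of SLC43A1. The probes of a gene carried different accessions in all 14.

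**Figure D5:**
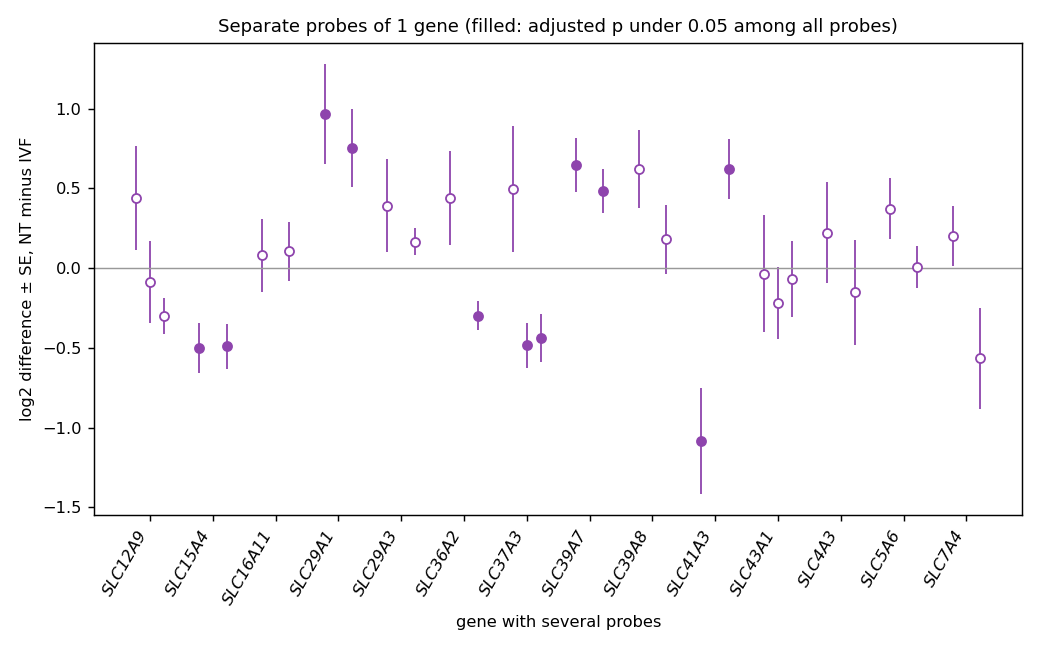
NT minus IVF difference of each separate probe of the 14 members with several probes, with log2 difference on the vertical axis, SE as bars and filled points for an adjusted p under 0.05 in the fit to all probes. The probes of SLC15A4, SLC29A1 and SLC39A7 lie on 1 side of 0 and are filled, and those of SLC41A3 lie on both sides at -1.08 and 0.62.

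The median SD of a member between embryos of 1 kind was 0.48 in NT, 0.47 in IVF and 0.52 in AI embryos, against 0.41, 0.45 and 0.44 over all genes. SLC27A2 had the narrowest spread in NT embryos (SD 0.18) and in AI embryos (SD 0.15), and SLC30A4, a vesicular zinc carrier, the widest in NT embryos (SD 1.21). Across embryos, deviations from the group means were compared as a description, and the points share arrays, reference and amplification. Those of ABCG2 were most like SLC35B2 (r = 0.50 over 43 embryos), a carrier of the sulfate donor of the Golgi, followed by SLC44A1, SLC15A4, SLC12A9 and SLC36A2 at 0.42 to 0.28. Those of ABCC2 were most like SLC16A11 (r = 0.40 over 44 embryos), SLC52A2, SLC29A1, SLC11A1 and SLC43A1, the last at 0.33. The highest value for ABCC5 was 0.32, with ABCC10, followed by SLC16A13, SLC35E2B, SLC3A2 and SLC13A4. The 95th percentile of r over all genes was 0.28 for ABCC2, 0.27 for ABCC5 and 0.29 for ABCG2.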

How the data were processed

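Expression was measured in single blastocysts and donor cells on a 2-colour cDNA array, each sample against reference RNA on 2 dye-swapped arrays. The deposited values are log2 ratios per spot, and the labels state no scanner, background correction, normalisation or ratio direction. No intensities were analysed here. A fill value of 16.61, the log2 of 1e+05, was treated as missing in 2657 cells, and 4.39% held no value. The sign was turned where Cy3 marked the sample, since the 2 arrays of a sample correlated at -0.74 to -0.30 as deposited. Duplicate spots (median r = 0.793) were averaged, each array was centred on its median because medians ran from -2.14 to 0.86, and the 2 arrays were averaged where both had a value. The number of arrays limits the precision.

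Gene names came from GEO's platform annotation, which can be old, and all 62 members matched a RefSeq gene table by Entrez ID. Probes with 1 symbol numbered 5598, those with several 95 and those with none 2515. Tests needed values in 50% or more of the embryos of every kind and in both donor cell samples, which left 7992 probes, and probes of a symbol were averaged into 4398 genes. limma 3.58.1 in R 4.3.3 fitted group means with eBayes and 2-sided tests. Per the labels samples are separate embryos; for donor cells nothing says that they came from separate cultures, so that their p-values may measure technical spread. On simulated NT against AI data with 200 of 4398 genes changed, 35% of log2 changes of 0.5 and 93% of those of 1 were recovered. The simulated noise was normal and drawn separately for each gene and sample, so that recovery in the measured data may differ.

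Members and gene lists were chosen with earlier results of these data known. The text names ABCC2, ABCC5 and ABCG2, the members past the threshold between embryos, the largest calls against donor cells, the member of smallest p in each class, members whose probes disagree and the 5 members most like each of the 3 named exporters.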

Additional observations from a re-analysis of the deposited data

How the results depend on the processing

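Of 17 analysis alternatives run besides leaving out a donor cell sample, 2 were chosen after seeing the data. Without centring the median probe moved by 0.44 for NT minus AI, 0.37 for NT minus IVF and 0.08 for IVF minus AI, and by 0.19, -0.17 and -0.25 for NT, IVF and AI minus donor cells. The members called were then 22 for NT against AI embryos (45.4% of all genes), 19 for NT against IVF embryos (39.9%), 12 for IVF against AI embryos (15.9%) and 15 for IVF embryos against donor cells (23.5%). Without centring the sign turned for ABCC2 (0.10) and SLC37A3 (0.0791) in NT minus AI, and for ABCC5 (0.16), ABCG2 (0.13), SLC20A1 (0.0514), SLC27A2 (0.0511) and SLC37A1 (0.0656) in NT minus IVF. With the sample in Cy5 alone 8 members were called for NT against AI embryos (12.9% of all genes), and the sign turned for ABCC5 (-0.0410) and SLC26A2 (0.72) in NT minus AI and SLC26A2 (0.47) in IVF minus AI. With the sample in Cy3 alone ABCG2 was 0.0467 in NT minus IVF. With NT embryos labelled 2_ alone 3 members were called against AI embryos (3.77% of all genes). Leaving out a donor cell sample gave 11 to 15 calls for NT, 14 to 17 for IVF and 16 to 19 for AI embryos, with 22% to 24.6% of all genes called. Over these omissions ABCG2 ran from -1.86 to 0.77 in NT, from -1.61 to 1.02 in IVF and from -2.82 to -0.19 in AI embryos minus donor cells. ABCC3 ran from -3.23 to 0.24 in AI embryos. The highest values were without the sample numbered 9 for ABCG2 and without that numbered 8 for ABCC3. The cause of these changes was not tested. Of 112 calls 72 held without centring, 83 with the sample in Cy5 alone, 80 in Cy3 alone, 101 with only the groups compared in the fit, 104 in the fit to all 92 arrays and 108 with quantile normalisation. Of the 68 calls against donor cells 40 held without the sample numbered 8 and 46 without that numbered 9.

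The replicate block, with embryo numbers as a random block, called 5, 15, 24, 23, 23 and 22 members, as without it, and 7.84%, 24.1%, 28.8%, 35.4%, 34.3% and 37% of all genes. AI and IVF embryos share 7 numbers, whose deviations correlated at -0.06 to 0.09, and 1 of 7 AI embryos correlated best with its own number.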

Other observations

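Of the AI embryos, 3 carry an H before their number, which the labels do not explain. SLC40A1, the iron exporter ferroportin, was -0.47, -1.87 and 0.09 in these embryos, and ran from -0.22 to 2.21 in the other 11. The difference was -1.89 ± 0.48 (adjusted p = 0.0406, limma), and SLC40A1 was the only member called among 41 genes, or 0.933% of 4393. Between 8 NT embryos labelled 2_ and 7 labelled 3_, limma called 0 of 4398 genes, and 356 had an unadjusted p under 0.05, among them the members SLC11A1, SLC46A3 and SLC52A2.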
